A study of Mus musculus with 24 samples.

Results

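The transcripts of 35 genes of fatty acid oxidation, ketone body metabolism and PPAR signalling were followed in mouse intestinal organoids before and after induction of BRAFV600E, p53R172H or both. The genes were taken as a named list, each symbol matched to 1 Ensembl identifier of the 45706 in the count tables, and all 35 passed the filter on low counts in both tissues. Organoids are self-renewing epithelial structures kept in a gel, and these were raised from C57BL/6N mice, either from small intestine (SI) or from colon (COL). All cultures carried Villin::CreERT2, a Cre recombinase expressed from the Villin promoter of intestinal epithelium and activated by 4-hydroxytamoxifen (4-HT). The 3 genotypes were BraffloxV600E/+;Villin::CreERT2 (BRAF), Trp53LSL-R172H/+;Villin::CreERT2 (p53) and BraffloxV600E/+;Trp53LSL-R172H/+;Villin::CreERT2 (BRAFp53). On organoids received 4-HT for 24 h, at 0.5 µM in SI and 3.5 µM in COL, and off organoids received ethanol. RNA was taken on day 8 in SI and on day 3 in COL, and the COL medium also held Wnt3a and a GSK3 inhibitor per the methods, so that dose, day and medium cannot be told apart from tissue. There were 2 libraries per group, 12 groups and 24 libraries. A single donor stood behind each genotype in a tissue, so genotype and culture cannot be told apart. For changes on induction and their differences, p-values measure the spread between libraries of 1 culture. For the comparison of off organoids they measure the spread between the 3 cultures of a tissue, which also differ in genotype.

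Fatty acids enter enterocytes from the gut lumen and the blood, are activated to acyl-CoA, and are either stored as lipid, exported, or burned. Long-chain acyl groups reach the mitochondrial matrix as carnitine esters and are shortened in repeated rounds of dehydrogenation, hydration, dehydrogenation and thiolysis. Peroxisomes run a related cycle for very long and branched chains, and the acetyl-CoA formed can be turned into ketone bodies. PPARα, PPARδ and PPARγ are nuclear receptors that bind fatty acids and switch on many of these genes, and PGC-1α is a coactivator that works with them. In the gut this programme is strongest in absorptive cells and is also known to influence intestinal stem cells.

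Totals ran from 51.2 to 78.2 M counts in COL libraries and from 44.4 to 68.2 M in SI libraries. Levels are CPM, that is counts for each 1 M counts of the library, after scaling by trimmed mean of M-values within a tissue (off levels of cultures were scaled over both tissues together and differ slightly from these), where 3 counts, taken as the limit of detection, equalled 0.0384 to 0.0586 CPM in COL and 0.044 to 0.0676 CPM in SI, for counting error only. Markers of stroma, immune cells and endothelium (12 genes) summed to 5.23 to 15.7 CPM in COL libraries, mainly Cd68, and to 1.05 to 1.95 CPM in SI libraries. In COL the sum moved with induction, at 5.77 to 6.16 CPM in off and 9.87 to 11.5 CPM in on libraries of BRAF organoids, and at 5.23 to 6.07 CPM in off and 13.1 to 15.7 CPM in on libraries of BRAFp53 organoids. The macrophage marker Cd68 was called higher in both arms, and its part in the COL results was not tested. Exons of 12 members share bases with another gene, among them Acsl5 with Zdhhc6, Acadvl with Dvl2, Crat with Dolpp1 and Acaa1a with Myd88, mostly on the opposite strand, and reads from the shared bases cannot be assigned where strand was not used. The 5 adipocyte markers summed to at most 0.157 CPM in any library. One library stood apart. The female-specific transcript Xist was at 15.4 CPM in SI BRAF on replicate 1, at 0.207 to 0.438 CPM in the other 3 SI BRAF libraries, and at 104 to 150 CPM in the SI p53 and BRAFp53 libraries. The stem cell marker Olfm4 was at 78.7 CPM in that library and at 9.08 CPM in on replicate 2. Leaving this library out is given for the counts of called members and for the SI BRAF values named there. In the COL BRAF culture, Gata4, a transcription factor of the small intestine, was at 35.8 to 54.8 CPM, against at most 2.95 CPM in the other COL libraries and 72.9 to 109 CPM in SI.

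Off organoids were compared first, with CPM scaled over both tissues together, to see where the pathway stood before induction. Of the 35 members, 21 were higher in SI and 1 in COL (edgeR quasi-likelihood test on 3 cultures per tissue, adjusted p under 0.05). Among all 17789 genes tested, 12.6% were called higher in SI and 17% higher in COL. The median member was 1.19 higher in SI on the log2 scale, against −0.08 for all genes. The members with the largest differences were Acaa1b, a peroxisomal thiolase, Slc27a2, a transporter and synthetase for very long-chain fatty acids, and Ppara. Acaa1b stood at 76.1, 107 and 106 CPM in the BRAF, BRAFp53 and p53 cultures of SI and at 4.02, 2.22 and 2.8 CPM in those of COL (log2 difference 4.96, SE 0.29, adjusted p = 0.000568). Slc27a2 stood at 38.8, 74.5 and 84.4 CPM in SI and at 1.57, 5.05 and 0.67 CPM in COL (log2 difference 4.74, SE 0.77, adjusted p = 0.00604). Ppara stood at 25.8, 70.2 and 60 CPM in SI and at 8.07, 2.77 and 6.65 CPM in COL (log2 difference 3.13, SE 0.51, adjusted p = 0.00604). The cultures of the tissues did not overlap for any of these genes. Pparg was the only member called higher in COL, at 80.8, 37.2 and 136 CPM against 18, 25.8 and 22.1 CPM in SI (log2 difference −1.98, SE 0.44, adjusted p = 0.0163). Without the COL BRAF culture 19 of the 22 calls remained, and Acadm, Cpt2 and Crot were lost. Without the SI p53 culture 15 members were called higher in SI. The count was 17 without the COL BRAFp53 or the SI BRAFp53 culture, 20 without the SI BRAF culture and 25 without the COL p53 culture. With any 1 of the SI cultures left out, 0 members were called higher in COL, so that the call of Pparg was lost.

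The order of levels within a tissue was read per kb of exon. In both tissues Acaa2, the last enzyme of the mitochondrial cycle, had the highest level, at 444 CPM per kb in SI and 144 CPM per kb in COL. It was followed by Hadh, the 3-hydroxyacyl-CoA dehydrogenase for shorter chains, at 219 CPM per kb in SI and 70.6 CPM per kb in COL. In SI, Acsl5, a long-chain acyl-CoA synthetase, was next at 186 CPM per kb. The lowest members were Ppard in SI (1.14 CPM per kb) and Slc27a2 in COL (0.647 CPM per kb). Off levels also varied between cultures of a tissue. The highest culture exceeded the lowest by more than 2-fold for 13 members in COL and 7 in SI, and the median ratio was 1.67 in COL and 1.4 in SI. Slc25a20, the mitochondrial carnitine-acylcarnitine carrier, was one of the 13, at 245 CPM in the COL p53 culture and at 85.9 and 86.8 CPM in the other COL cultures.

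**Figure D1:**
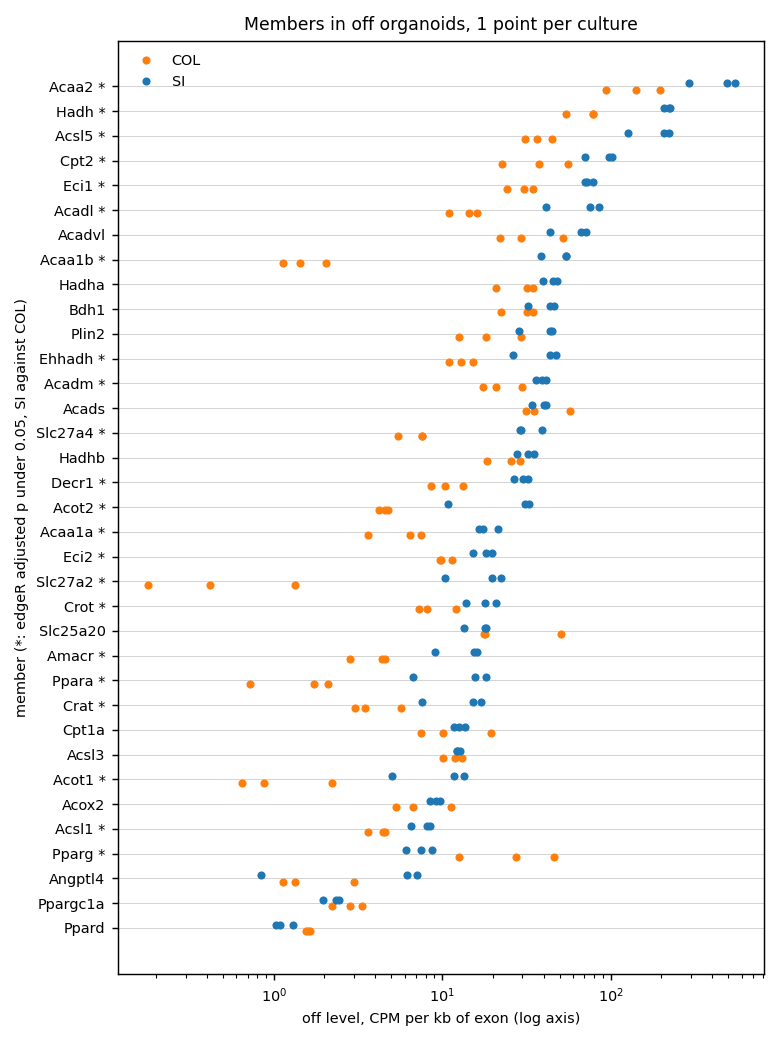
Off levels of the 35 members in CPM per kb of exon (log axis), with 1 point per culture (mean of 2 libraries), COL in orange and SI in blue, ordered by the SI mean. Most SI points lie to the right of the COL points, most widely for Acaa1b and Slc27a2, and the order is turned for Pparg.

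The response to induction was then determined in each of the 6 arms. In COL BRAF organoids 7 members rose and 12 fell, while 10.3% of the 18972 genes tested rose and 9.61% fell. In COL BRAFp53 organoids 6 members rose and 5 fell (9.95% and 7.76% of all genes). In SI BRAF organoids 13 members rose and 2 fell (17.5% and 14.2% of the 16856 genes tested). In SI BRAFp53 organoids 5 members rose and 9 fell (6.98% and 4.53% of all genes). The median member changed by −0.33, 0.05, 0.22 and −0.27 on the log2 scale in these arms, and the median gene by −0.01, −0.04, −0.06 and −0.03. Calls were thus more often lower than higher in COL BRAF and SI BRAFp53 organoids and more often higher in SI BRAF organoids, where 20 members were not called.

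In COL BRAF organoids 6 members were called higher and 7 lower without on replicate 1, and again 6 and 7 without off replicate 1, so that little was left of the excess of falls. Without SI BRAF on replicate 1, 15 members were again called in SI BRAF organoids, 14 of them the same, with Slc27a2 lost and Bdh1 gained. The log2 fold change without that library was 2.18 for Acsl5, 2.38 for Acox2, 1.83 for Slc27a4, 1.21 for Ppargc1a, 1.01 for Pparg and 0.94 for Acot2. Without SI BRAF on replicate 2 only 9 were called, all higher, with Slc27a2, Eci2, Angptl4, Acsl1, Acsl3 and Acaa1a lost. In SI BRAFp53 organoids the 14 calls dropped to 6 without on replicate 2 and to 6 without off replicate 1, with 3 higher and 3 lower each time, so that the excess of falls was lost. The calls of Hadha, Hadhb, Acadm, Acadvl, Acsl1, Acaa1b and Slc27a4 were lost in both cases, that of Pparg in the former and that of Ppard in the latter. In p53 organoids edgeR called 0 members in either direction, in COL (0.0316% of all genes rose and 0.111% fell) and in SI (0% and 0%). At an unadjusted p under 0.05 there were 6 members in COL and 4 in SI, where the shares of all genes at that threshold are not reported here. DESeq2 called 2 in COL, Hadh and Acot2, and 0 in SI, and limma-voom called 0 in both.

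**Figure D2:**
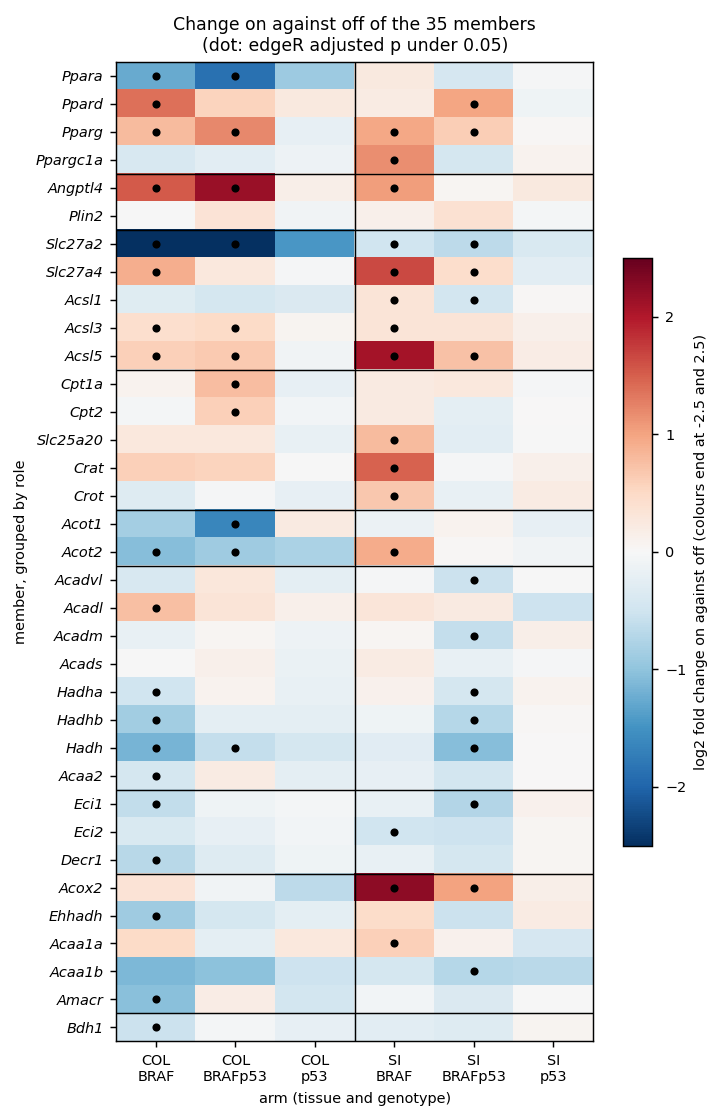
Log2 fold change on against off of the 35 members (rows, grouped by role) in the 6 arms (columns), red for higher and blue for lower in on organoids, with a dot where the edgeR adjusted p was under 0.05. The SI BRAF column holds 13 dots on red and 2 on blue, the COL BRAF column 7 and 12, the SI BRAFp53 column 5 and 9, and the p53 columns none.

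Across the arms 33 of the 35 members were called at least once, and Plin2 and Acads in none. The share of all genes called at least once was not computed. Pparg, Slc27a2 and Acsl5 were called in all 4 arms with BRAFV600E, each time in 1 direction. Of the 15 members called in at least 2 arms, 13 kept their direction. Acot2 and Acsl1 were called in opposite directions, the SI BRAF call of Acsl1 lying at the threshold. Among all genes called in 2 arms most also kept direction, 1662 of 1696 in COL and 1303 of 1383 in SI. Between tissues 1762 of 1947 did so for BRAF and 858 of 903 for BRAFp53. COL BRAF and COL BRAFp53 organoids shared 8 called members, all in the same direction, or 42.1% of the 19 and 72.7% of the 11. Among all genes the corresponding shares were 44.9% and 50.5%. The SI arms shared 6, or 40% of the 15 and 42.9% of the 14, and for all genes 25.9% and 71.3%.

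Among the receptors, Pparg, which drives lipid uptake and storage programmes, rose in every BRAFV600E arm. In COL it went from 94.8 and 85.4 CPM off to 156 and 157 CPM on in BRAF organoids (log2 fold change 0.80, SE 0.16, adjusted p = 0.00447). In the COL BRAFp53 arm it went from 37.4 and 44.5 to 111 and 76.8 CPM (1.20, SE 0.16, adjusted p = 0.000551). In SI it rose from 16.8 and 16.3 to 32.2 and 32.8 CPM in BRAF organoids (0.97, SE 0.15, adjusted p = 0.000251) and from 26.5 and 20.5 to 36 and 35.6 CPM in BRAFp53 organoids (0.61, SE 0.15, adjusted p = 0.0154). On and off libraries did not overlap in any of these arms. In p53 organoids the values were 161 and 140.5 CPM off and 135 and 128 CPM on in COL, and 20.9 and 19.5 off and 22.6 and 18.6 CPM on in SI, with no call.

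Ppara, the receptor best known for fatty acid oxidation, fell in COL from its already low level. It went from 8.08 and 9.93 to 4.92 and 2.53 CPM in COL BRAF organoids (log2 fold change −1.27, SE 0.38, adjusted p = 0.0349) and from 3.71 and 2.37 to 1.13 and 0.522 CPM in COL BRAFp53 organoids (−1.86, SE 0.41, adjusted p = 0.00849). In COL p53 organoids the libraries also did not overlap (8.1 and 6.7 off, 3.97 and 3.87 CPM on), but the change was not called (−0.92, adjusted p = 0.524). In SI no arm was called. Ppara stood there at 20.8 and 26.6 CPM off and 25.1 and 31.1 CPM on in BRAF organoids (0.24, adjusted p = 0.265), and at 65.6 and 62.5 off and 49.6 and 46.1 CPM on in BRAFp53 organoids (−0.42, adjusted p = 0.0991). The BRAF response of Ppara was higher in SI than in COL by 1.55 on the log2 scale (SE 0.38, adjusted p = 0.0122, joint edgeR fit).

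Ppard, the broadly expressed receptor, rose in COL BRAF organoids from 12.2 and 14 to 35.7 and 32.6 CPM (log2 fold change 1.38, SE 0.19, adjusted p = 0.000492) and in SI BRAFp53 organoids from 6.67 and 8.4 to 15.2 and 14.5 CPM (0.98, SE 0.22, adjusted p = 0.00966). It was not called in the other arms. In SI BRAF organoids the on libraries lay on either side of the off libraries, at 7.75 and 12.8 CPM around 8.79 and 9.12 CPM. The log2 value there was 0.20 with both on libraries and 0.54 without on replicate 1 (adjusted p = 0.0527), and turned to −0.21 without on replicate 2.

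Ppargc1a, which encodes PGC-1α, was called in 1 arm and rose there, in SI BRAF organoids, from 13.1 and 16.6 to 32.3 and 33.8 CPM (log2 fold change 1.15, SE 0.18, adjusted p = 0.000314). With p53R172H added, in SI BRAFp53 organoids, it stood at 12.5 and 11.1 CPM off and 8.34 and 9.1 CPM on (−0.43, adjusted p = 0.157). The difference of these responses was −1.58 (SE 0.26, adjusted p = 0.00233). The BRAF response in SI exceeded that in COL by 1.60 (SE 0.30, adjusted p = 0.00147), with 19.7 and 21.9 CPM off and 18.7 and 12.6 CPM on in COL BRAF organoids.

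**Figure D3:**
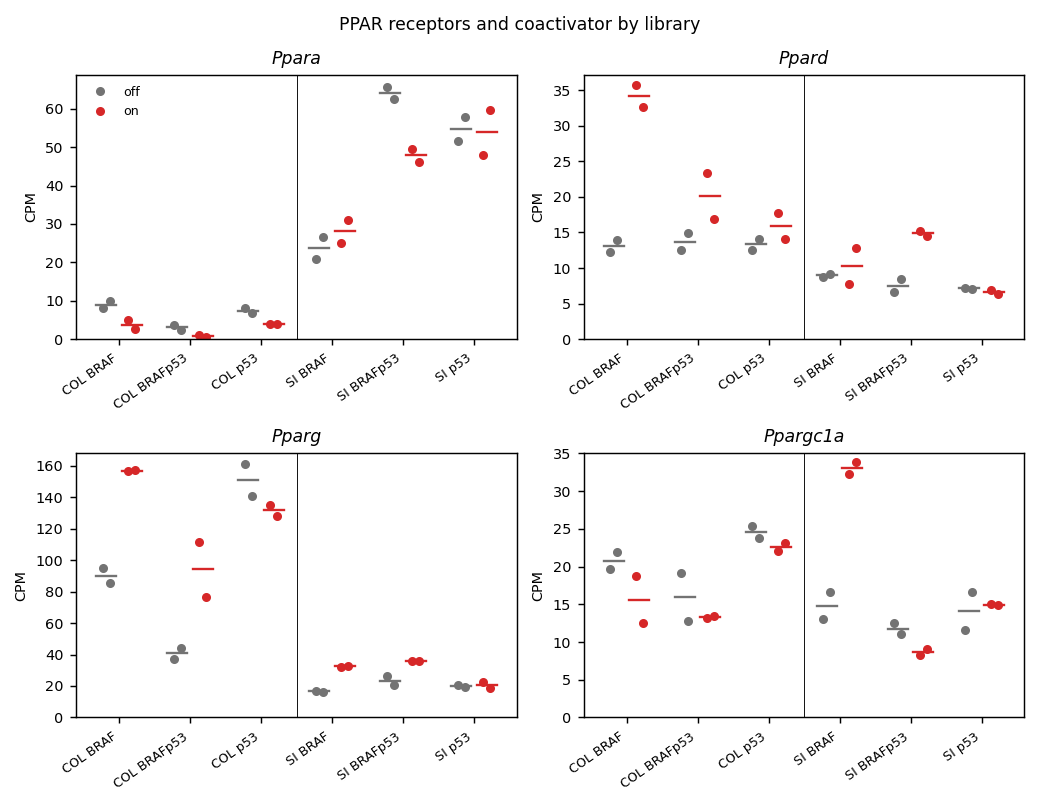
CPM of Ppara, Ppard, Pparg and Ppargc1a in each library (points) of the 6 arms, off in grey and on in red, with a bar at the mean of 2 libraries. Pparg rises in the 4 arms with BRAFV600E, Ppara falls in COL from under 10 CPM, and Ppargc1a rises in SI BRAF organoids.

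Angptl4, a secreted inhibitor of lipoprotein lipase and a classical PPAR target, was the member with the largest rise in COL. It went from 11.7 and 12.2 to 38.7 and 30.2 CPM in COL BRAF organoids (log2 fold change 1.53, SE 0.30, adjusted p = 0.00384) and from 5.4 and 3.47 to 24.3 and 15.4 CPM in COL BRAFp53 organoids (2.16, SE 0.31, adjusted p = 0.000764). In SI it rose in BRAF organoids from 24 and 16.4 to 40.5 and 43.2 CPM (1.05, SE 0.33, adjusted p = 0.0255). It was low throughout in SI BRAFp53 organoids, at 3.49 and 1.9 CPM off and 4.14 and 1.52 CPM on. The BRAFp53 response was lower in SI than in COL by 2.06 on the log2 scale (−2.06, SE 0.54, adjusted p = 0.0411), a call that limma-voom did not make (adjusted p = 0.0595). Plin2, the coat protein of lipid droplets, was called in no arm. Its levels ran from 45 to 124 CPM in COL and from 84.8 to 199 CPM in SI.

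PPARs bind with RXR to a repeat of AGGTCA with 1 base between the copies (AGGTCANAGGTCA, where N is any base). RefSeq promoters (GRCm38.p6) were matched for 30 of the 35 members, and the 250 bases before the start site were searched on both strands. No member held these letters, which 0.0407% of the 27025 genes with a promoter did. With at most 1 mismatch there was again no member (0.566% of all genes), and with at most 2 mismatches, a limit chosen after the stricter searches, only Plin2 (3.72% of all genes). Its window is shown because it is the one match, with the matched letters in capitals, read on the strand of the gene (minus) at chr4:86670260-86670296, the repeat lying on the opposite strand.
Plin2: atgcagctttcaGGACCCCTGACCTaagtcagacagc
A match of letters is a description of this window and says nothing about binding, and sites farther from the start were not searched.

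Among the genes of uptake and activation Slc27a2 fell in all 4 BRAFV600E arms. In COL BRAF organoids it went from 1.86 and 1.63 CPM to 0.0167 and 0.34 CPM, that is 1 and 16 counts (log2 fold change −3.34, SE 0.93, adjusted p = 0.0247). In COL BRAFp53 organoids it went from 5.54 and 5.58 CPM to 0.0136 and 0.0843 CPM, that is 1 and 5 counts (−6.85, SE 1.09, adjusted p = 0.00145). At so few counts, 1 of them under the limit of 3 counts in each arm, the fitted fold is imprecise. In SI the falls were smaller, from 38.6 and 32.7 to 24.7 and 25.6 CPM in BRAF organoids (−0.50, SE 0.15, adjusted p = 0.0182) and from 66.6 and 69.3 to 38.8 and 47.2 CPM in BRAFp53 organoids (−0.66, SE 0.14, adjusted p = 0.00923). The SI BRAF call was lost without on replicate 1 (−0.46, adjusted p = 0.0813) and also without on replicate 2. The tissues differed in both responses, by 2.96 for BRAF (SE 0.64, adjusted p = 0.00503) and by 6.25 for BRAFp53 (SE 0.70, adjusted p = 6.19e-05).

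Acsl5 was the most abundant of the acyl-CoA synthetases and rose in the 4 arms. Among SI BRAF organoids it went from 617 and 511 to 2238 and 2527 CPM, a 4.23-fold rise (log2 fold change 2.08, SE 0.12, adjusted p = 1.14e-07). The rise in SI BRAFp53 organoids was from 1048 and 929.5 to 1596 and 1676 CPM (0.73, SE 0.12, adjusted p = 0.00148). The increases in COL were 0.60 in BRAF organoids (238 and 249 to 375 and 366 CPM, adjusted p = 0.00254) and 0.65 in BRAFp53 organoids (168 and 165 to 286 and 236 CPM, adjusted p = 0.00196). The SI BRAF response thus exceeded both the SI BRAFp53 response (difference −1.35, SE 0.17, adjusted p = 0.000481) and the COL BRAF response (1.52, SE 0.17, adjusted p = 2e-05).

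Slc27a4, the main fatty acid transport protein of enterocytes, rose in SI BRAF organoids from 121 and 115 to 333 and 413 CPM (log2 fold change 1.66, SE 0.13, adjusted p = 8.29e-07). It rose less in SI BRAFp53 organoids, from 125 and 113 to 152 and 171 CPM (0.44, SE 0.12, adjusted p = 0.0343), and the difference was −1.22 (SE 0.17, adjusted p = 0.00102). It also rose in COL BRAF organoids, from 36.5 and 38.1 to 63.1 and 77 CPM (0.91, SE 0.19, adjusted p = 0.00622), and in COL BRAFp53 organoids on and off libraries overlapped (0.27, adjusted p = 0.377). Acsl3, a synthetase of the endoplasmic reticulum and lipid droplets, rose slightly in COL BRAF (0.41), COL BRAFp53 (0.47) and SI BRAF organoids (0.33), with adjusted p between 0.0233 and 0.0481. Acsl1, the synthetase of oxidative tissues, was called up in SI BRAF organoids (64 and 61.3 to 74.9 and 80.7 CPM, 0.31, SE 0.11, adjusted p = 0.05) and down in SI BRAFp53 organoids (83.2 and 72.3 to 54.5 and 59.1 CPM, −0.45, SE 0.11, adjusted p = 0.0199). The first of these sits at the threshold, and was lost in edgeR without a filter on low counts and in a fit of that arm alone. The difference of the responses was −0.77 (SE 0.16, adjusted p = 0.0106).

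Of the 5 carnitine genes, which move acyl groups across the mitochondrial and peroxisomal membranes, 2 rose in COL BRAFp53 and 3 in SI BRAF organoids, and none was called in the other arms. Cpt1a, the rate-limiting outer transferase, and Cpt2, the inner transferase, rose in COL BRAFp53 organoids. Cpt1a went from 59.6 and 66.3 to 119 and 95.8 CPM (log2 fold change 0.77, SE 0.15, adjusted p = 0.00404), and Cpt2 from 68.7 and 50.9 to 96.6 and 85 CPM (0.60, SE 0.16, adjusted p = 0.0235). The COL BRAFp53 off culture had the lowest Cpt1a and Cpt2 levels of the COL cultures, and the on levels stayed below the off levels of the COL p53 culture (166 and 166 CPM for Cpt1a). Their BRAFp53 response in COL was not called different from the BRAF response by edgeR (adjusted p = 0.114 for Cpt1a and 0.162 for Cpt2), whereas DESeq2 called Cpt1a and edgeR without a filter on low counts called both. The 3 genes that rose in SI BRAF organoids were Crat, Slc25a20 and Crot. Crat, carnitine acetyltransferase, went from 36.7 and 39.1 to 105 and 105 CPM (1.47, SE 0.15, adjusted p = 1.12e-05), and Slc25a20 from 64.9 and 55.2 to 108 and 101 CPM (0.80, SE 0.14, adjusted p = 0.000858). Crot, the peroxisomal octanoyltransferase, went from 72.6 and 66 to 111 and 109 CPM (0.67, SE 0.15, adjusted p = 0.00484). None of the 3 was called in SI BRAFp53 organoids, where on and off libraries overlapped for each. Their responses were lower there than in SI BRAF organoids, by −1.50 for Crat (SE 0.21, adjusted p = 0.000953), −1.06 for Slc25a20 (SE 0.20, adjusted p = 0.00614) and −0.84 for Crot (SE 0.22, adjusted p = 0.0298). Off levels of Crat differed between these cultures, 98 and 70 CPM in BRAFp53 against 36.7 and 39.1 CPM in BRAF.

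The thioesterases Acot1 (cytosolic) and Acot2 (mitochondrial), which release free fatty acids from acyl-CoA, are close paralogs, 95.2% identical over 1239 aligned coding bases. Of the 75-base stretches of the whole Acot1 transcript, untranslated parts included, 19.7% also occur in that of Acot2. Reads from these stretches cannot be told apart. The first coding bases of Acot1 and the stretch of Acot2 that aligns with them show where they can be separated, with differing bases in capitals (GRCm38, plus strand, chr12:84009510-84009569 and chr12:83988025-83988084).
Acot1: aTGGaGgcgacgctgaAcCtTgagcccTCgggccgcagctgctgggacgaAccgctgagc
Acot2: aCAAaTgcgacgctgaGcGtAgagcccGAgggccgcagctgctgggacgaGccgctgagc
The window holds 10 differing bases, and the Acot2 stretch starts at coding base 124.

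Acot2 was the clearest case of opposite directions. It fell in COL BRAF organoids from 9.79 and 10.8 to 4.8 and 5 CPM (log2 fold change −1.07, SE 0.18, adjusted p = 0.0015) and in COL BRAFp53 organoids from 11.1 and 11.8 to 6.59 and 5.76 CPM (−0.89, SE 0.18, adjusted p = 0.00468). By contrast, it rose in SI BRAF organoids from 23.6 and 20.3 to 41.5 and 41.6 CPM (0.92, SE 0.14, adjusted p = 0.000199). The responses of the tissues differed by 2.03 for BRAF (SE 0.20, adjusted p = 3.2e-06) and by 0.96 for BRAFp53 (SE 0.19, adjusted p = 0.00913). It stood at 69.7 and 62 CPM off and 70.7 and 63.6 CPM on in SI BRAFp53 organoids. In COL p53 organoids it stood at 12.2 and 10.2 CPM off and 6.52 and 6.47 CPM on (−0.79, adjusted p = 0.13), the same separation of libraries as in the other COL arms but without a call in edgeR. Acot1 fell in COL BRAFp53 organoids from 7.99 and 11.2 to 2.35 and 3.84 CPM (−1.63, SE 0.32, adjusted p = 0.00496), and off libraries of the other COL cultures held 2.76 to 4.53 CPM. It was called in no SI arm, and its BRAFp53 response was 1.75 higher in SI than in COL (SE 0.31, adjusted p = 0.00427).

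**Figure D4:**
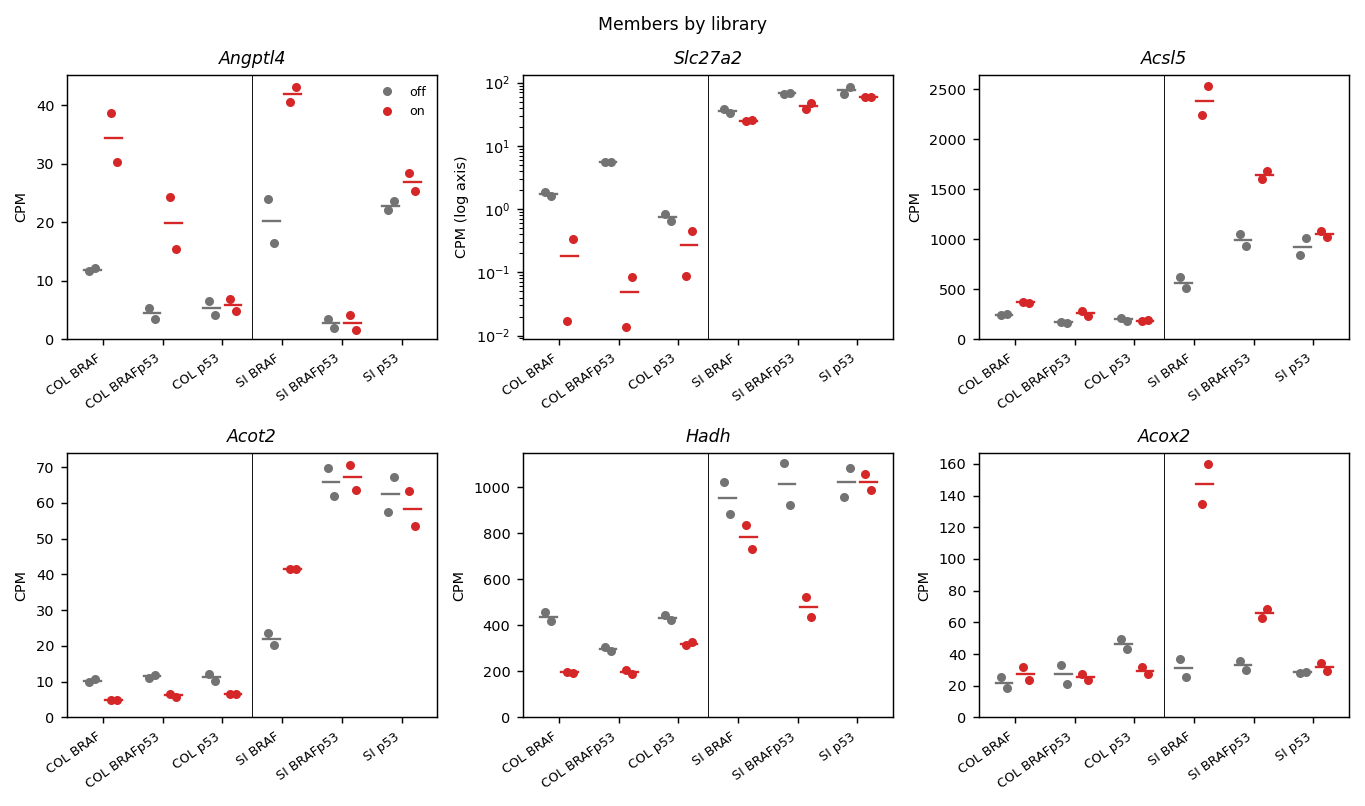
CPM of 6 members in each library (points, bar at the mean of 2) of the 6 arms, off in grey and on in red, on a log axis for Slc27a2. Acsl5 and Acox2 rise most in SI BRAF organoids, Hadh falls in COL BRAF, COL BRAFp53 and SI BRAFp53 organoids, and Acot2 falls in COL but rises in SI BRAF organoids.

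Of the 8 genes of the mitochondrial cycle, 4 fell and 1 rose in COL BRAF organoids, 1 fell in COL BRAFp53, 5 fell in SI BRAFp53, and none was called in SI BRAF organoids. Hadh fell in 3 arms. It went from 459 and 418 to 196 and 195 CPM in COL BRAF organoids (log2 fold change −1.17, SE 0.09, adjusted p = 1.81e-05), the change with the smallest adjusted p of any member in that arm. It went from 305 and 289 to 205 and 187 CPM in COL BRAFp53 organoids (−0.60, SE 0.09, adjusted p = 0.00128). The fall in SI BRAFp53 organoids was from 1104 and 921 to 524 and 438 CPM (−1.07, SE 0.13, adjusted p = 0.000129). Libraries of SI BRAF organoids held Hadh at 1023 and 882 CPM off and 837 and 732 CPM on (−0.28, adjusted p = 0.118), and the SI responses differed by −0.79 (SE 0.18, adjusted p = 0.0173). In COL p53 organoids Hadh was at 446 and 423 CPM off and 315 and 327 CPM on (−0.44, adjusted p = 0.121).

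Hadha and Hadhb encode the subunits of the trifunctional protein, which carries the last 3 steps for long chains. The genes lie head to head on chromosome 5, and 85 bases separate their start sites in GENCODE M21 (chr5:30155163-30155247, plus strand, which is the strand of Hadhb). The stretch is shown because both genes changed in the same arms, with GGGCGG (the GC box) in capitals.
Hadha_Hadhb: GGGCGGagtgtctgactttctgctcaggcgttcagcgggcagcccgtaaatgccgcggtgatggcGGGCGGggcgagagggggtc
It holds 2 copies of GGGCGG on the plus strand, a motif found on either strand in 25.5% of promoters over the same length, and no CCAAT (18.8% of promoters). In COL BRAF organoids Hadha fell from 298 and 319.6 to 222 and 214 CPM (log2 fold change −0.50, SE 0.11, adjusted p = 0.00572) and Hadhb from 193 and 184 to 106 and 101 CPM (−0.86, SE 0.10, adjusted p = 0.000127). Likewise, in SI BRAFp53 organoids Hadha fell from 418 and 349.8 to 305 and 260.0 CPM (−0.44, SE 0.12, adjusted p = 0.0251) and Hadhb from 232 and 189.7 to 142 and 116 CPM (−0.71, SE 0.16, adjusted p = 0.0118). Neither was called in COL BRAFp53 or SI BRAF organoids. The on and off libraries did not overlap in the called arms.

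The dehydrogenases of the first step act on chains of different length and did not move together. Acadl, for long chains, rose in COL BRAF organoids from 26.5 and 22.7 to 44.1 and 38.5 CPM (log2 fold change 0.75, SE 0.13, adjusted p = 0.0024), the single rise in the cycle. Acadvl, for very long chains, and Acadm, for medium chains, fell in SI BRAFp53 organoids. Acadvl went from 197 and 152 to 134 and 105 CPM (−0.54, SE 0.16, adjusted p = 0.0404) and Acadm from 158 and 137 to 103 and 91.8 CPM (−0.60, SE 0.14, adjusted p = 0.0121). Acads, for short chains, was called nowhere and ran from 73.3 to 150.5 CPM in COL and from 58.8 to 90.3 CPM in SI. Acaa2 fell in COL BRAF organoids from 242 and 237 to 178 and 177 CPM (−0.43, SE 0.13, adjusted p = 0.0388), and its value in SI BRAFp53 organoids lay just over the threshold (761 and 591 to 514 and 474 CPM, −0.45, adjusted p = 0.0509).

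The auxiliary enzymes, which allow unsaturated chains to enter the cycle, had negative log2 values in all 4 BRAFV600E arms, of which 4 of the 12 values were called. Eci1, a mitochondrial enoyl-CoA isomerase, fell in COL BRAF organoids from 79.9 and 85.6 to 48.7 and 58.8 CPM (log2 fold change −0.62, SE 0.12, adjusted p = 0.00435) and in SI BRAFp53 organoids from 139 and 135 to 89.1 and 75.5 CPM (−0.73, SE 0.12, adjusted p = 0.00135). Decr1, the dienoyl-CoA reductase, fell in COL BRAF organoids from 60.6 and 54.8 to 36.4 and 34.9 CPM (−0.70, SE 0.12, adjusted p = 0.00232). Eci2, an isomerase of peroxisomes and mitochondria, fell in SI BRAF organoids from 86.5 and 69.6 to 61.1 and 49.4 CPM (−0.50, SE 0.17, adjusted p = 0.0371).

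In the peroxisomal group Acox2, an oxidase of branched chains and bile acid intermediates, had the largest rise of any member in SI. It went from 36.9 and 25.5 to 135 and 159.9 CPM in BRAF organoids (log2 fold change 2.24, SE 0.17, adjusted p = 9.36e-07) and from 35.7 and 30.1 to 63 and 68.5 CPM in BRAFp53 organoids (1.0, SE 0.17, adjusted p = 0.00152). The SI responses differed by −1.24 (SE 0.23, adjusted p = 0.006). In COL the on and off libraries overlapped in both BRAFV600E arms, and the BRAF responses of the tissues differed by 1.95 (SE 0.31, adjusted p = 0.00047). Ehhadh, the bifunctional enzyme that follows the oxidase, fell in COL BRAF organoids from 42.6 and 43.1 to 26.5 and 19.9 CPM (−0.88, SE 0.15, adjusted p = 0.00177). In SI it was called in no arm, but its values lay on either side of 0, with 79.8 and 64.2 off and 104 and 94.4 CPM on in BRAF organoids (0.47, adjusted p = 0.053) and 139.6 and 120.0 off and 104 and 75.3 CPM on in BRAFp53 organoids (−0.54, adjusted p = 0.0603), and these responses differed by −1.0 (SE 0.24, adjusted p = 0.0222). Amacr, the racemase for branched chains, fell in COL BRAF organoids from 15.9 and 10.8 to 6.47 and 6.4 CPM (−1.05, SE 0.26, adjusted p = 0.0149).

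Acaa1a and Acaa1b are peroxisomal thiolases and paralogs that are 96.5% identical over 1275 coding bases. Of the 75-base stretches of the whole Acaa1a transcript, 27.3% occur in that of Acaa1b. Their first 60 coding bases, shown with the differing base in capitals, differ once (GRCm38, chr9:119341515-119341574 on the plus strand and chr9:119156935-119156994 on the minus strand).
Acaa1a: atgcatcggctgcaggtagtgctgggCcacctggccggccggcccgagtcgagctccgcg
Acaa1b: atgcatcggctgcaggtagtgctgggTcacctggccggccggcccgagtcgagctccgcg
How the counting treated such shared reads was not stated, so their split between the genes is uncertain. Acaa1a rose in SI BRAF organoids from 71 and 70.3 to 90.8 and 122 CPM (log2 fold change 0.59, SE 0.15, adjusted p = 0.00992). Acaa1b fell in SI BRAFp53 organoids from 119.5 and 74.8 to 54.1 and 63.7 CPM (−0.72, SE 0.20, adjusted p = 0.0302). In COL Acaa1b did not exceed 5.13 CPM in any library, while Acaa1a ran from 16.9 to 54 CPM.

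Bdh1, which interconverts the ketone bodies acetoacetate and beta-hydroxybutyrate, fell in COL BRAF organoids from 147 and 129 to 90.5 and 99.5 CPM (log2 fold change −0.54, SE 0.12, adjusted p = 0.00863). Its values in the other BRAFV600E arms were −0.05 in COL BRAFp53, −0.27 in SI BRAF and −0.32 in SI BRAFp53 organoids, none called.

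To ask whether the tissues responded differently, the BRAF response in SI was compared with that in COL in a joint fit of the 24 libraries. It was higher in SI for 15 members and lower for 1, Ppard, against 7.4% and 3.31% of the 19673 genes tested. Of the 35 members, 30 had a positive difference, with a median of 0.58 against 0.01 for all genes. Beside the members given above, these were Crat (0.91), Crot (1.03), Slc27a4 (0.79), Acsl1 (0.66), Ehhadh (1.39), Amacr (1.03), Hadh (0.93), Hadha (0.65) and Hadhb (0.80), with adjusted p from 0.0012 to 0.045. In limma-voom Crat (adjusted p = 0.0533) and Amacr (0.0563) were not called. Most of them combined a fall or no call in COL with a rise or no call in SI. The comparison rests on 1 culture per tissue and includes both the COL BRAF culture with Gata4 transcripts and SI BRAF on replicate 1. Without the latter 12 of the 16 calls remained, and Ppard, Crat, Amacr and Hadhb were lost. The count was 10 without COL BRAF on replicate 1, 10 without on replicate 2 and 10 without off replicate 1 of that culture, and 9 without SI BRAF off replicate 2.

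**Figure D5:**
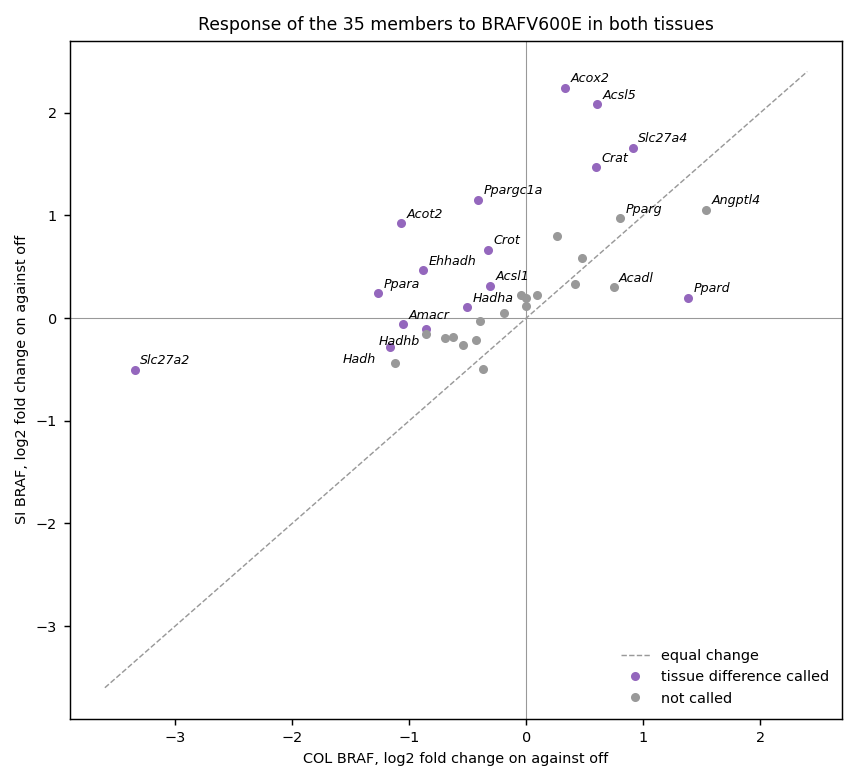
Log2 fold change on against off of the 35 members in COL BRAF (x axis) and SI BRAF organoids (y axis), purple where the difference between the tissues was called and grey where it was not, with a dashed line for equal change. Most members lie above the line, Acox2 and Acsl5 at the top, Slc27a2 far to the left, and Ppard below the line.

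For BRAFp53 the tissues differed in 5 members, Slc27a2, Acot1 and Acot2 with higher and Angptl4 and Cpt2 with lower values in SI (2.13% and 1.39% of all genes). Cpt2 differed by −0.80 (SE 0.21, adjusted p = 0.0449). Without SI BRAFp53 on replicate 2 or without off replicate 1 there were 3 higher and 0 lower, and none was lower either without COL BRAFp53 on replicate 1 (4 higher) or off replicate 2 (5 higher). DESeq2 called 5 higher and 7 lower, as did edgeR without a filter, so that the balance of directions depends on these settings. For p53 the joint edgeR fit called 0 members (0.107% of all genes higher and 0.0102% lower), and DESeq2 and limma-voom called 0. There were 7 members at an unadjusted p under 0.05, and the share of all genes at that threshold is not reported here.

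The BRAFp53 response was next compared with the BRAF response within a tissue, which also compares donor cultures that, in SI, differ in sex-linked transcripts. The Y-linked gene Kdm5d was at 11.5 to 17.0 CPM in SI BRAF libraries and at 15.5 to 23.0 CPM in COL libraries, and at most at 0.0363 CPM in SI BRAFp53 and p53 libraries, where Xist was high. The BRAFp53 and p53 comparisons between tissues, and in part that of off organoids, thus also compare cultures that differ in these transcripts, and sex cannot be told apart from culture. In SI it was lower for 11 members and higher for 0, against 6.28% and 1.93% of all genes, and 31 of the 35 members had a negative difference, with a median of −0.52 (0.03 for all genes). Besides Acsl5, Slc27a4, Acsl1, Ppargc1a, Crat, Crot, Slc25a20, Hadh, Acox2 and Ehhadh, Acot2 was among them (−0.89, SE 0.19, adjusted p = 0.0113). All 11 were called again without SI BRAF on replicate 1, together with Ppara and Acaa1a. The count was 6 without SI BRAF off replicate 2, 7 without SI BRAFp53 on replicate 2 and 6 without SI BRAFp53 off replicate 1. In COL edgeR called 0 members (0.532% of all genes higher and 0.374% lower), with 15 at an unadjusted p under 0.05. The smallest edgeR adjusted p was that of Hadhb, 0.0518. DESeq2 called 9, of which 7 higher and 2 lower, and limma-voom 1, Hadhb. The shares of all genes at the unadjusted threshold and in these tools are not reported here. In COL 25 of the 35 members had a positive difference, with a median of 0.18 (−0.03 for all genes), opposite in sign to that in SI.

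A further 63 genes of the same pathways were read alongside the members. Of the 55 tested in COL, 5 rose and 9 fell in BRAF organoids (10.3% and 9.61% of all genes). In COL BRAFp53 organoids 8 rose and 3 fell (9.95% and 7.76% of all genes). None of the 8 tested partners and coregulators of PPARs (RXRs, corepressors and coactivators) was called in COL, and 1 rose and 2 fell in SI BRAF organoids. Of the 57 tested in SI, 28 rose and 5 fell in BRAF organoids (17.5% and 14.2% of all genes). In SI BRAFp53 organoids 9 rose and 10 fell (6.98% and 4.53% of all genes). None of these related genes was called in a p53 arm. Among them Acat1, a mitochondrial acetoacetyl-CoA thiolase, fell in all 4 BRAFV600E arms.

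Among lipid droplet genes Cidec, which enlarges droplets, rose in the 4 arms, from 9.02 and 10.6 to 98.6 and 130 CPM in SI BRAF organoids (log2 fold change 3.54, SE 0.20, adjusted p = 8.99e-08, and 3.74 without on replicate 1) and from 21.8 and 14.9 to 94.7 and 100.1 CPM in SI BRAFp53 organoids (2.41, SE 0.19, adjusted p = 4.58e-06). The changes in COL were 0.93 in BRAF and 1.73 in BRAFp53 organoids. Plin3, a droplet coat protein, also rose in the 4 arms (0.61 to 1.48), whereas its relative Plin2 did not pass the test in any. Of the 12 tested genes of peroxisomal oxidation all rose in SI BRAF organoids (11 without on replicate 1), against 17.5% of all genes. In SI BRAFp53 organoids 1 rose and 1 fell (6.98% and 4.53% of all genes), and 8 of the 12 values were negative. The response there was lower than that in SI BRAF organoids for 10 of the 12 (6.28% of all genes). Among the COL BRAF calls 1 of these 12 rose and 4 fell (10.3% and 9.61% of all genes), with Hacl1, an enzyme of alpha-oxidation, the lowest (−1.72). Acot9, a mitochondrial thioesterase, rose in the 4 arms (0.73 to 1.56).

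Other cell type markers changed in the same arms, and the shares of all genes called in each arm and comparison are those given above. In SI BRAF organoids enterocyte markers, like the members, were mostly called higher. In the other arms with BRAFV600E the balance of their calls was opposite to that of the members. Of 25 enterocyte markers that are no members, 24 rose and 1 fell in SI BRAF organoids, with and without on replicate 1, and their summed level was 8528 to 10470 CPM in off and 31020 to 36540 CPM in on libraries. In SI BRAFp53 organoids 10 rose and 5 fell (12290 to 13940 CPM off, 16610 to 18700 CPM on). In COL BRAF organoids 9 rose and 5 fell, in COL BRAFp53 organoids 3 rose and 9 fell, and in COL p53 organoids 3 fell. For the differences between responses the enterocyte markers had 22 lower for SI BRAFp53 less BRAF (median −1.40) and 19 higher and 2 lower for BRAF in SI less COL. In both differences that follow, they and the members had medians of opposite sign. For COL BRAFp53 less BRAF 5 markers were lower and 0 higher (median −0.85, against 0.18 for the members), and for BRAFp53 in SI less COL 10 were higher and 1 lower (median 0.93, against −0.13 for the members). Of 8 general epithelial markers 7 rose in each of COL BRAF, COL BRAFp53 and SI BRAF organoids and 5 in SI BRAFp53 organoids, and in COL BRAF organoids, where 12 members fell, their summed level was 11860 to 12660 CPM in off and 27490 to 29120 CPM in on libraries. In off organoids 20 enterocyte markers were higher in SI and 1 in COL, in the same direction as most members. All 8 stem cell markers fell in SI BRAF organoids, 1 in SI BRAFp53 and 6 in each of COL BRAF and COL BRAFp53 organoids, and of 10 proliferation markers 7, 0, 9 and 2 fell in these arms. In bulk RNA fewer cells of a type and less RNA per cell cannot be told apart, and the part of cell type shares in the members' changes was not tested.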

How the data were processed

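The 24 organoid RNA-seq libraries were processed by the authors as follows. Paired-end reads were trimmed with Trimmomatic (0.36 in the submitters' processing notes), and STAR (2.5.2b in these notes) aligned them to mm10 and counted reads for each gene. Both count tables, 1 per tissue, hold whole-number read counts as deposited by the authors, unnormalized and not pooled. Annotation release, strand setting and treatment of shared reads are not given in the sources used here. GENCODE M21 held 45143 of the 45706 identifiers.

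The counts were analysed with edgeR 4.0.16 in R 4.3.3 (TMM factors, filterByExpr, glmQLFTest). Each tissue had 1 fit of 12 libraries, both tissues entered a fit of all 24 to compare responses, and off levels were compared after summing the 2 off libraries of a culture. A gene was called when its p, adjusted after Benjamini and Hochberg over every gene tested, was under 0.05. SE is the size of the log2 value divided by the square root of F. Procedures were first tested on simulated data. In each of the 12 groups the 2 libraries differed beyond counting noise (chi-square 22.2 to 102 for each degree of freedom). Alternatives were DESeq2 1.42.0 and limma-voom (limma 3.58.1), RLE factors, no filter, a minimum of 10 counts per library, a replicate block, single-arm fits and leaving out libraries. Members, lists of related genes and markers, and the rule for named genes were chosen with earlier results of these data known. The rule named the PPAR genes, the 3 called members with the largest change per direction and arm, members called in opposite directions and members whose responses differed. The values of some related genes are not reported here.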

Additional observations from a re-analysis of the deposited data

Results flagged for a closer look

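The members listed here had responses that differed between tissues or genotypes in the edgeR test of the difference itself (adjusted p under 0.05). Values are log2 differences of on against off changes, with 2 libraries per group and 1 culture per genotype and tissue.

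The BRAF response was higher in SI than in COL for Slc27a2 (2.96), Acot2 (2.03), Acox2 (1.95), Ppargc1a (1.60), Ppara (1.55), Acsl5 (1.52), Ehhadh (1.39), Amacr (1.03), Crot (1.03), Hadh (0.93), Crat (0.91), Hadhb (0.80), Slc27a4 (0.79), Acsl1 (0.66) and Hadha (0.65), and lower for Ppard (−1.14). The BRAFp53 response was higher in SI for Slc27a2 (6.25), Acot1 (1.75) and Acot2 (0.96), and lower for Angptl4 (−2.06) and Cpt2 (−0.80). In SI the BRAFp53 response was lower than the BRAF response for Ppargc1a (−1.58), Crat (−1.50), Acsl5 (−1.35), Acox2 (−1.24), Slc27a4 (−1.22), Slc25a20 (−1.06), Ehhadh (−1.0), Acot2 (−0.89), Crot (−0.84), Hadh (−0.79) and Acsl1 (−0.77).

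Off levels of the SI BRAF and BRAFp53 cultures differed for several of these, for example Acot2 at 23.9 and 72.2 CPM and Crat at 41.2 and 92.2 CPM on the joint scale, and the part of these levels in the differences was not tested.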

How the results depend on the processing

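Among the 68 named values that were called, no alternative turned a direction. Alternatives other than leaving out a library or culture (single-arm fits included) lost the call in 14 of 432 recomputed values, for 9 of the 68, and leaving one out lost it in 99 of 408, for 30 of the 68. DESeq2 lost none of them. Beyond the block, calls were lost for Acsl1 in SI BRAF organoids without a filter or in the single-arm fit, for Eci2 in SI BRAF organoids with RLE factors or in the single-arm fit, and with limma-voom for Amacr and Crat (BRAF, SI less COL) and Angptl4 (BRAFp53, SI less COL).

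Counts of called members moved by over 1.5 times as follows. COL p53 organoids had 2 without a filter and 2 in DESeq2 in place of 0, SI p53 organoids 2 without a filter, and the p53 response in SI less COL 2 without a filter. The COL BRAFp53 response less the BRAF response had 9 without a filter, 1 with at least 10 counts in every library, 9 in DESeq2 and 1 in limma-voom in place of 0. The BRAFp53 response in SI less COL had 12 without a filter, 11 with at least 10 counts, 12 in DESeq2 and 8 with a replicate block in place of 5. The cause was not tested.

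Same-numbered on and off libraries were not paired by the labels, and their deviations from group means correlated at −0.0392 to 0.0573. A replicate block lost 7 of 64 named calls, namely Acsl1 in SI BRAF (adjusted p = 0.0922) and SI BRAFp53 organoids (0.053), Acaa1b in SI BRAFp53 organoids (0.0789), and for BRAF in SI less COL Acsl1 (0.0519), Amacr (0.0553), Crat (0.0803) and Slc27a4 (0.0976).

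Leaving out a library gave 9 to 15 called members in SI BRAF organoids, 6 to 12 in SI BRAFp53, 13 to 14 in COL BRAF and 8 to 13 in COL BRAFp53. It gave 0 to 1 for the COL BRAFp53 less BRAF response, 6 to 13 for that in SI, 9 to 13 for BRAF in SI less COL, 3 to 7 for BRAFp53 in SI less COL, and 15 to 26 for off organoids, where a culture was left out. Directions turned for uncalled log2 values of Ppargc1a in COL BRAFp53 (−0.52 to 0.061), Ppard in SI BRAF (−0.21 to 0.54), and in SI p53 organoids Pparg (−0.12 to 0.16), Ppara (−0.19 to 0.13) and Ppargc1a (−0.15 to 0.36). With 2 libraries per group, 1 library can decide a call near the threshold, and at low levels such as Slc27a2 in COL counting error adds to this.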
